A study of Mus musculus with 30 samples.

Results

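The comparison described here asks which genes of the mouse liver gained, lost or kept their response to hepatocyte CEBPA loss as that loss and the diet went on for longer. It is the difference between 2 genotype effects. The log2 fold change of knockout over control livers at HFCFD8W+T10D was subtracted from the same log2 fold change at HFCFD12W+T10W, so a positive difference means a more positive knockout effect in the longer experiment. The 4 groups needed for it held 5 mice each, 20 of the 30 liver libraries in the series, with 1 stranded poly(A) library per mouse. HFCFD8W+T10D mice received HFCFD, a diet rich in fat, cholesterol and fructose that drives metabolic dysfunction-associated steatohepatitis (MASH), for 8 weeks, with tamoxifen for 10 days. HFCFD12W+T10W mice received the diet for 12 weeks and then for a further 10 weeks together with tamoxifen, 22 weeks of diet in all. In each experiment the knockout group was Cebpa ΔHep,ERT2 (Cre+), in which tamoxifen activates a Cre recombinase driven from the albumin promoter, and the control group was Cebpa fl/fl (Cre-), which carries the same floxed alleles and was also given tamoxifen. The mice were males on a C57BL/6N background, and the labels give neither their age nor the hour of collection. Between the experiments, the time on diet, the time on tamoxifen, the age of the mice and the experiment itself cannot be told apart.

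CEBPA is a leucine zipper transcription factor of the hepatocyte. It switches on genes of gluconeogenesis, nitrogen disposal, bile acid handling and plasma protein secretion, and it restrains division. Osteopontin, encoded by Spp1, is a secreted matrix protein that binds integrins and CD44 and activates hepatic stellate cells, the cells that lay down collagen in the fibrotic liver. The design sets a genotype effect seen soon after deletion beside one seen after a long time without the factor. In whole liver, fewer cells of a type and less RNA per cell cannot be told apart.

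Library totals ran from 8047010 to 9956884 counts. Of the 55450 genes in the table, 12900 passed the filter on low counts and were tested with the edgeR quasi-likelihood test, with p-values adjusted over all of them by the Benjamini-Hochberg method. Levels are given as counts per 1000000 (CPM) of the library size scaled by trimmed mean of M values (TMM), listed for mice 1 to 5 of a group in that order, and changes are in log2 units. The hepatocyte markers Alb, Apoa1, Ttr, Serpina1c, Apob, Tat and Cps1 were detected in every group, and their summed level had a median of 145200 CPM in Cebpa fl/fl and 72550 CPM in Cebpa ΔHep,ERT2 mice at HFCFD8W+T10D, and of 111700 and 59680 CPM at HFCFD12W+T10W. The 5 Cebpa ΔHep,ERT2 mice of HFCFD8W+T10D spread the most in these sums, from 58380 to 122100 CPM, the highest of them in mouse 4.

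Cebpa itself (chr7:35119293-35121928, plus strand, GRCm38) had levels of 133, 157, 169, 162 and 162 CPM in HFCFD8W+T10D Cebpa fl/fl mice and of 16.4, 26.6, 23.3, 14.1 and 12.1 CPM in the Cebpa ΔHep,ERT2 mice. At HFCFD12W+T10W it had levels of 136, 141, 90.5, 148 and 108 CPM in Cebpa fl/fl mice and of 22.4, 25.7, 24.6, 20.2 and 22.3 CPM in the knockout mice. All 10 knockout libraries lay below all 10 control libraries. The knockout effect was -3.08 at HFCFD8W+T10D and -2.43 at HFCFD12W+T10W. Its difference of 0.64 ± 0.24 (SE, 95% interval 0.146 to 1.14) did not pass the test (edgeR adjusted p = 0.104, range over the alternatives 0.0184 to 0.34). Without knockout mouse 2 of HFCFD8W+T10D it was 0.85 and passed the test (edgeR adjusted p = 0.0184).

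Spp1 (chr5:104435118-104441050, plus strand) was higher in both experiments, and more so in the longer one. At HFCFD8W+T10D its level was 58.1, 40.8, 42.2, 38.3 and 45.6 CPM in Cebpa fl/fl mice and 355, 366, 296, 149.5 and 161 CPM in Cebpa ΔHep,ERT2 mice. At HFCFD12W+T10W its level was 40.2, 54.4, 45.6, 56.1 and 54.4 CPM in Cebpa fl/fl mice and 760.3, 767, 1061, 748 and 998 CPM in Cebpa ΔHep,ERT2 mice. The ranges of the control mice of both experiments overlapped, every knockout mouse lay above them, and the lowest HFCFD12W+T10W knockout mouse was above the highest HFCFD8W+T10D one. The knockout effect went from 2.56 to 4.11, a difference of 1.55 ± 0.30 (edgeR adjusted p = 0.00408), with an adjusted p of at most 0.00999 when any 1 mouse was left out or another setting was used.

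The 8 bases TTNNGCAA, a simple form of the site that CEBP proteins bind, were searched on both strands (TTGCNNAA on the other) in promoter windows of RefSeq (GRCm38.p6). Each window ran from 250 bases before to 50 bases after an annotated start, and the shares count matches anywhere in it. A run such as TTGCGCAA reads as both forms and was counted once. The letters were present in 10.8% of all 32851 windows and in 9.1% of the 12737 windows of the genes tested here that could be matched. Among genes lower in the knockouts of both experiments, 154 of 215 matched and 20.4% of their 201 windows held the letters, while for genes higher in both it was 10.5% of 533 windows. Among genes whose higher level was gained in the longer experiment, by the definition given below, the share was 8.2% of 340 windows, and among those whose lower level was gained it was 11.3% of 97. A match describes the sequence and not a bound site. The sequences below are the 250 bases before the start, read 5′ to 3′ on the gene's strand, with the match in capitals. Matches named for single genes refer to these 250 bases only. Matches were also present for Ngp and Slpi, named below as gaining a higher level, and for Mmp12, named as higher in both experiments. Those 3 genes are not printed. The printed sequences are those of Spp1, of the 3 genes named below as lower in both experiments that held a match, and of Slc34a2, whose lower level in the knockouts was lost. They lie at chr5:104435942-104436191 (plus strand, the downstream of 2 Spp1 windows, the upstream one holding no match), chr7:14446588-14446837 (minus), chr12:103956898-103957147 (minus), chr7:26173159-26173408 (plus) and chr5:53049103-53049352 (plus), in that order, and the match begins 156, 217, 211, 180 and 48 bases before the start.
Spp1: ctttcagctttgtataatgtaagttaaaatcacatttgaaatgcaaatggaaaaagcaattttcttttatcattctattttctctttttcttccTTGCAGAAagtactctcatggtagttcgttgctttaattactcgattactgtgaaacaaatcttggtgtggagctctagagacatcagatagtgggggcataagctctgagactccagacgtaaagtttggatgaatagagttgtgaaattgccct
Sult2a8: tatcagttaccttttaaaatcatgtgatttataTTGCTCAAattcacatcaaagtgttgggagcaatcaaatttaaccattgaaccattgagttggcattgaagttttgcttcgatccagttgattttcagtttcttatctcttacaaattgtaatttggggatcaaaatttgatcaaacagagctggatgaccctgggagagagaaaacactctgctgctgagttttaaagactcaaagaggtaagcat
Serpina1e: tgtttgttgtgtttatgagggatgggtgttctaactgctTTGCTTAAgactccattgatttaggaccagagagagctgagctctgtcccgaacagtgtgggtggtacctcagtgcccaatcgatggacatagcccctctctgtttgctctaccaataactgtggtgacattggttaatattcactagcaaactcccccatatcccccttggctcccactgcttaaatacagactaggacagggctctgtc
Cyp2b9: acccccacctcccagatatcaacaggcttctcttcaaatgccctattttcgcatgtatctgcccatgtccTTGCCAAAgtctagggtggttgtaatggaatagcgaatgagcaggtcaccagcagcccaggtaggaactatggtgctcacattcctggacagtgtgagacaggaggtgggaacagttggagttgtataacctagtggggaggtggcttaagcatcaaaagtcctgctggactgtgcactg
Slc34a2: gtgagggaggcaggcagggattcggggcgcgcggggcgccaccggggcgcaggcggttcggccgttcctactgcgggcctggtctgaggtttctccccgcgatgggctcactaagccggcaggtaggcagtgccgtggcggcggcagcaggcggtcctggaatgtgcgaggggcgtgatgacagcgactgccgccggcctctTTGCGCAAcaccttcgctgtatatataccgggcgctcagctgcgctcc

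Across the liver transcriptome, the knockout effect was more positive at HFCFD12W+T10W for 522 genes (4.05% of those tested) and more negative for 400 (3.1%), so that 922 genes (7.15%) had a called difference at an adjusted p under 0.05, while 2976 (23.1%) had an unadjusted p under 0.05 and DESeq2 called 1275 (9.88%). The median difference over all genes was -0.012. The share of positive calls, 56.6%, depended on the scaling, and was 60.5% with relative log expression factors, 74.8% with upper quartile factors and 84.7% with unscaled library totals. With those totals the median difference of all genes moved to 0.2. TMM factors were 1.192 to 1.274 in the HFCFD12W+T10W knockout mice, against 0.774 to 1.201 in the other 15 mice. Leaving out 1 mouse at a time gave 384 to 835 positive calls, the latter without knockout mouse 2 of HFCFD8W+T10D. The negative calls were the less stable of the 2 directions. They numbered 656 without that same mouse and 215 without knockout mouse 4 of HFCFD8W+T10D, 258, 240 and 255 without control mouse 1, 3 or 5 of HFCFD8W+T10D, 260 without control mouse 3 of HFCFD12W+T10W, and 177 and 185 without knockout mouse 2 or 5 of HFCFD12W+T10W. Without both knockout mice 1 and 4 of HFCFD8W+T10D, a choice made after seeing the data, the counts were 279 and 123.

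**Figure D1:**
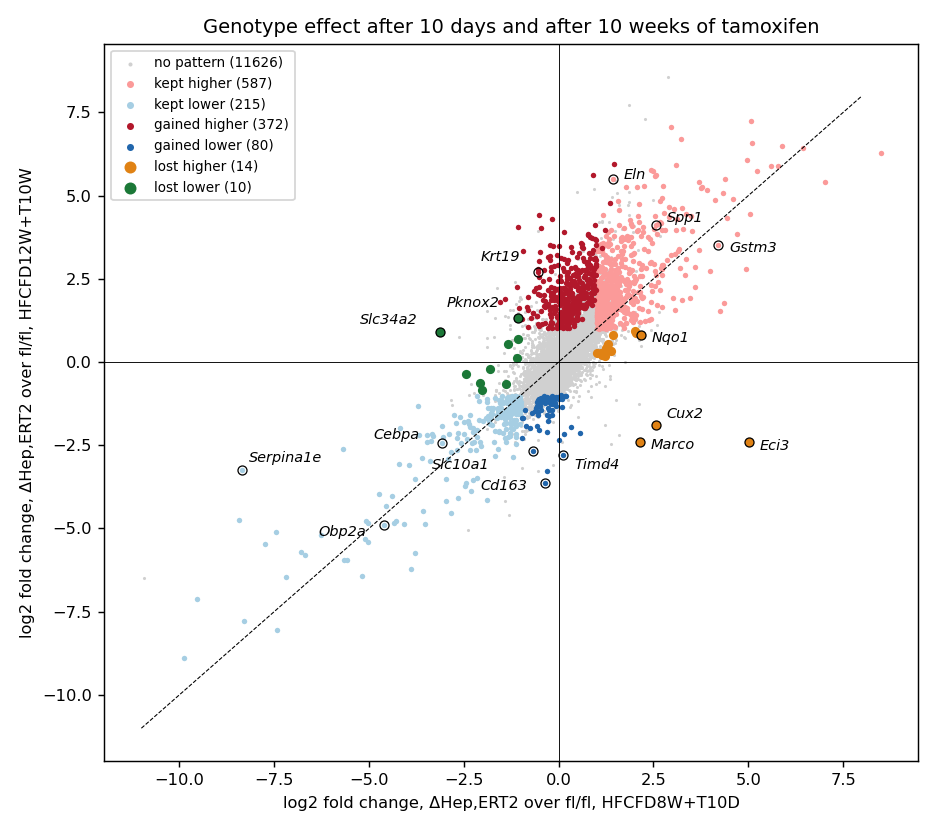
Knockout effect (log2 fold change of Cebpa ΔHep,ERT2 over Cebpa fl/fl) at HFCFD12W+T10W on the vertical axis against the effect at HFCFD8W+T10D on the horizontal axis, 1 point per gene tested, with the genes of each pattern in colour. Genes with a called difference lie away from the diagonal of equal effects, among them Spp1 at 2.56 and 4.11.

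A genotype effect was called when the adjusted p was under 0.05 and the fold over 2. By that rule 676 genes (5.24%) were higher and 285 (2.21%) lower in the knockouts at HFCFD8W+T10D, against 1822 (14.1%) and 512 (3.97%) at HFCFD12W+T10W. Of the 676 genes higher in the shorter experiment, 672 had a positive effect in the longer one too and 587 (86.8%) were called there. Of the 285 lower genes, 274 had the same sign and 215 (75.4%) were called. Read from the other end, the shared genes made up 32.2% of those higher and 42% of those lower at HFCFD12W+T10W. For 863 of the 1822 higher genes neither the HFCFD8W+T10D effect nor the difference was called, so a call in 1 experiment alone did not show that the effect changed. A gain or a loss was read only where the difference itself was called as well. On that reading 372 genes gained a higher level, 80 gained a lower level, 14 lost a higher level, 10 lost a lower level and 4 were called in opposite directions. The 4 are counted among the gains and the losses too, since Eci3, Marco and Cux2 lost a higher and gained a lower level and Pknox2 the reverse. These counts follow from the rule and are given as a description. A gain can include a gene already higher at HFCFD8W+T10D by a fold under 2. Examples are Col1a2 (effect 0.98, edgeR adjusted p = 0.0162) and Lum (0.95, adjusted p = 0.00563). A loss can likewise leave an effect of a fold under 2 at HFCFD12W+T10W.

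The 372 genes that gained a higher level had a median effect of 0.264 at HFCFD8W+T10D and 1.941 at HFCFD12W+T10W, and a median difference of 1.722 (1.69 with the 25 genes that had a group with at most 3 counts in every mouse raised to 3 counts there). They numbered 591 without knockout mouse 2 of HFCFD8W+T10D and 195 without its mice 1 and 4. Among protein-coding genes with at least 5 CPM in 1 group, the 5 with the largest difference were Ngp, S100a8, Slpi, Rab27b and Krt19. Ngp and S100a8 are carried by neutrophils, Slpi encodes a secreted inhibitor of neutrophil elastase, Rab27b encodes a small GTPase of vesicle secretion and Krt19 encodes a keratin of bile duct cells.

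Rab27b was at 4.58, 2.56, 1.76, 1.32 and 1.598 CPM in Cebpa fl/fl and 1.62, 1.57, 3.16, 1.94 and 1.75 CPM in Cebpa ΔHep,ERT2 mice at HFCFD8W+T10D, where the groups overlapped. At HFCFD12W+T10W Rab27b was at 0.896, 0.978, 0.504, 0.628 and 1.44 CPM and 6.88, 5.78, 9.101, 7.38 and 9.11 CPM, with every knockout mouse above every control mouse. Its difference was 3.30 ± 0.45 (edgeR adjusted p = 0.000318).

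Krt19 was at 4.45, 4.99, 3.65, 0.883 and 6.71 CPM in HFCFD8W+T10D Cebpa fl/fl mice and 2.13, 1.83, 3.04, 3.76 and 3.61 CPM in their knockouts, and those groups overlapped. In the longer experiment Krt19 was at 1.41, 1.71, 0.756, 2.51 and 2.44 CPM in controls and 9.05, 9.46, 16.9, 9.15 and 13.3 CPM in knockouts, which did not overlap. The effect went from -0.54 to 2.70, a difference of 3.23 ± 0.52 (edgeR adjusted p = 0.00114).

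S100a8 was at 12.98, 1.57, 1.01, 0.772 and 2.02 CPM in HFCFD8W+T10D controls and 3.95, 1.92, 5.62, 1.55 and 2.48 CPM in the knockouts, where control mouse 1 was the highest of all. It was at 0.384, 0.245, 0.882, 1.63 and 1.89 CPM in HFCFD12W+T10W controls and 4.43, 13.3, 28.1, 8.56 and 4.91 CPM in the knockouts, which did not overlap. The differences of S100a8 (3.75 ± 1.02, edgeR adjusted p = 0.0293), Ngp (5.11 ± 1.41, adjusted p = 0.0322) and Slpi (3.30 ± 0.90, adjusted p = 0.0295) each lost their call in 6 of the 20 fits without 1 mouse. The highest adjusted p in those fits was 0.12 for S100a8 (without HFCFD8W+T10D control mouse 1), 0.0854 for Ngp and 0.069 for Slpi. Between the experiments S100a8 (1.94, edgeR adjusted p = 0.0273) and Ngp (2.64, adjusted p = 0.0266) rose in knockout livers. For Slpi that change was not called (1.04, edgeR adjusted p = 0.225), and its level fell in control livers (-2.27, adjusted p = 0.0345). The summed neutrophil markers had medians of 5.03 and 8.46 CPM at HFCFD8W+T10D and of 3.53 and 32.6 CPM at HFCFD12W+T10W, control before knockout, with a range of 11.97 to 99.7 CPM in the last group and 33.6 CPM in HFCFD8W+T10D control mouse 1. Ngp and S100a8 are among those markers. Ly6g, Mpo and Camp of that list did not pass the filter on low counts.

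**Figure D2:**
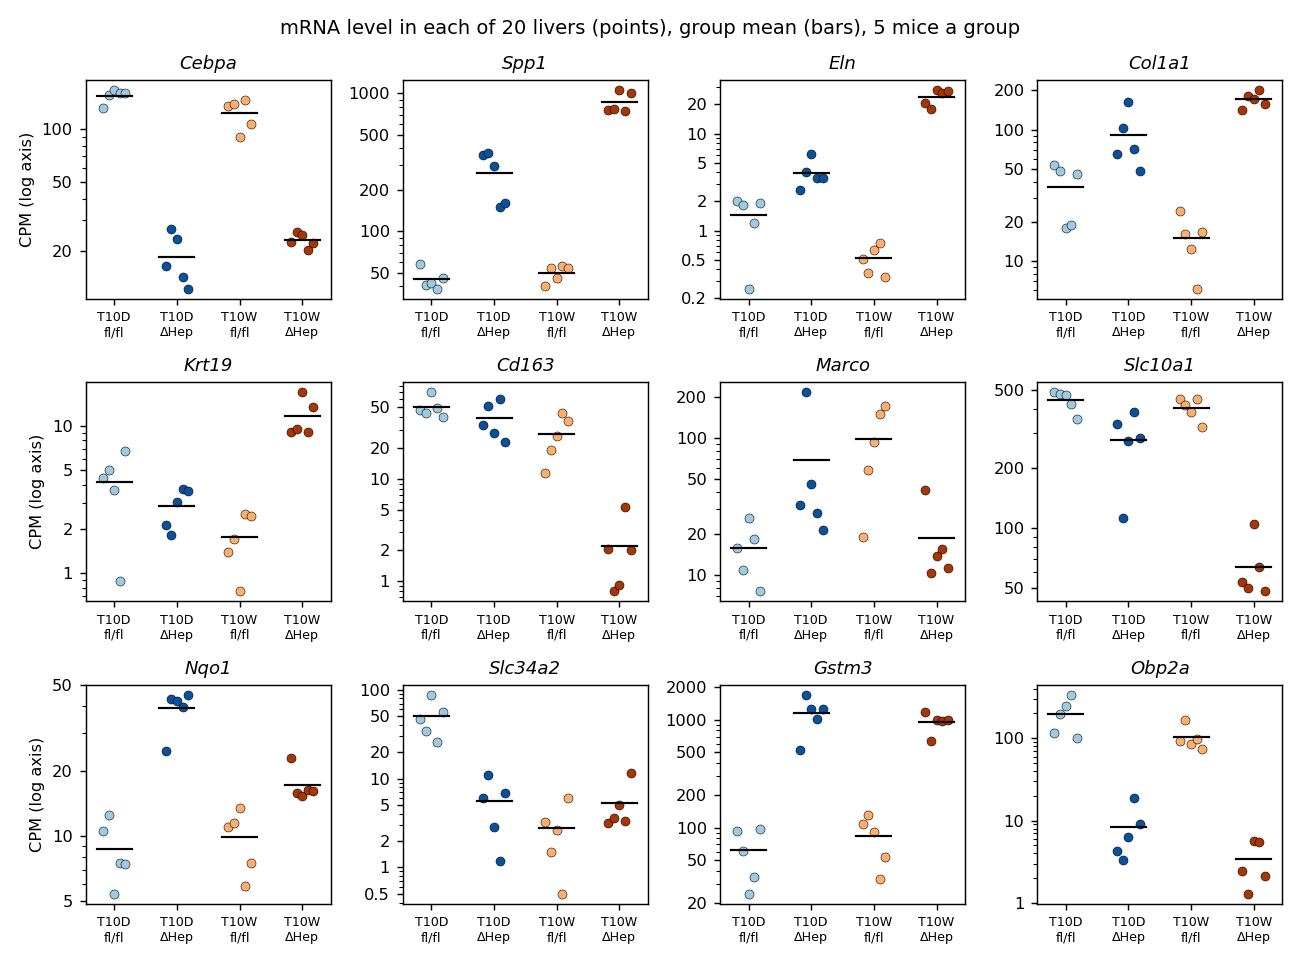
Level of single genes in each of the 20 mice, as CPM on a log axis, 1 point per mouse and 1 column per group, with the bar at the group mean. The means of Spp1, Eln, Col1a1 and Krt19 are highest and those of Cd163 and Slc10a1 lowest in the HFCFD12W+T10W Cebpa ΔHep,ERT2 mice (T10D, HFCFD8W+T10D. T10W, HFCFD12W+T10W. ΔHep, Cebpa ΔHep,ERT2).

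Genes of the extracellular matrix and of the cells that make it had the most positive calls of the 33 gene lists examined, beside genes of the bile ducts. Of 17 collagen chains tested, 13 had a called positive difference, against 4.05% of all genes, and the list's median difference was 1.36. Of 25 matrix proteases, protease inhibitors and crosslinking enzymes, 12 were called positive with a median of 1.51, and of 22 stellate cell and myofibroblast genes 15 were, with a median of 1.49. The lists were chosen with earlier results of these data known, so their counts are a description.

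Col1a1, the main fibril-forming chain, was at 53.5, 48.2, 17.9, 18.98 and 46.02 CPM in Cebpa fl/fl and 65.2, 103, 163, 71.5 and 48.4 CPM in Cebpa ΔHep,ERT2 mice at HFCFD8W+T10D, where 1 knockout mouse lay inside the control range. It was at 24.2, 16.1, 12.3, 6.15 and 16.6 CPM and 142, 179, 172, 201 and 158 CPM at HFCFD12W+T10W, with no overlap. Both sides of the ratio moved, since Col1a1 fell in controls (-1.29, edgeR adjusted p = 0.0261) and rose in knockouts (0.92, adjusted p = 0.0424) between the experiments. The difference was 2.20 ± 0.48 (adjusted p = 0.00919). Col3a1 behaved alike in size, with 2.19 ± 0.39 (edgeR adjusted p = 0.00225), and Col8a1 had the largest difference of the collagens at 2.41 ± 0.59 (adjusted p = 0.0181, and 0.0506 at most over the alternatives).

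Elastin was the clearest case. Eln was at 2.04, 1.85, 0.252, 1.21 and 1.92 CPM in HFCFD8W+T10D controls and 2.64, 4.02, 6.21, 3.498 and 3.51 CPM in the knockouts, and at 0.512, 0.367, 0.6303, 0.753 and 0.333 CPM in HFCFD12W+T10W controls and 20.6, 17.9, 28.4, 25.97 and 27.4 CPM in the knockouts. Neither pair of groups overlapped, and the longer experiment's knockout mice were all far above the rest. Its effect went from 1.44 to 5.51, a difference of 4.07 ± 0.49 (edgeR adjusted p = 0.000234). Other called members included Tgfb2, a ligand of the profibrotic TGF-β pathway, at 3.46 ± 0.59 (adjusted p = 0.00166), and Ltbp2, a microfibril protein, at 3.26 ± 0.55 (adjusted p = 0.00158).

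Among the enzymes that remodel matrix, Lox, which crosslinks collagen and elastin, had at most 3 counts in every HFCFD12W+T10W control mouse (mean 0.146 CPM), against a mean of 4.37 CPM in the knockouts there. Its call (edgeR adjusted p = 0.0299) was lost in 4 of 20 fits without 1 mouse, with an adjusted p of up to 0.152. The protease inhibitors Timp1 (2.75 ± 0.71, edgeR adjusted p = 0.0228) and Timp2 (1.64 ± 0.23, adjusted p = 0.000345) and the gelatinase Mmp2 (1.65 ± 0.30, adjusted p = 0.0024) were called too, and each kept its call without any 1 mouse. Timp1 lost it in 2 of the other settings (adjusted p up to 0.0545).

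The summed stellate cell markers moved in the same samples. Their medians were 532.5 and 597.5 CPM in HFCFD8W+T10D controls and knockouts, and 358.1 and 1156 CPM in those of HFCFD12W+T10W, where the range was 323.6 to 407.2 CPM in controls and 1124 to 1389 CPM in knockouts. All 7 of these markers are also members of the collagen or stellate cell lists, and 4 of the 7 had a called positive difference. Their part in the matrix genes was not tested.

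Biliary and ductular genes had the highest median difference of the 33 lists, 2.16 over 19 genes. Of these 10 were called positive, against 4.05% of all genes. The keratin Krt7 (3.06 ± 0.53, edgeR adjusted p = 0.00176), the progenitor surface protein Prom1 (2.52 ± 0.36, adjusted p = 0.000396) and the ductal transcription factor Sox9 (2.14 ± 0.43, adjusted p = 0.00486) were among them. Over the list the median change between the experiments was 1.855 in knockout livers and -0.27 in control livers. For Sox9 it was 1.16 and -0.98, so the control side added to that difference, while Epcam rose on both sides (2.57 and 0.74). Between the experiments 16 of the 19 genes rose in knockout livers (adjusted p under 0.05), against 12.4% of all genes, while 1 rose in control livers, against 5.09% of all genes. Epcam, an adhesion molecule of duct cells, had a called difference of 1.83 ± 0.47 (edgeR adjusted p = 0.0234), which was lost in 2 of 20 fits without 1 mouse (adjusted p up to 0.0668). The summed cholangiocyte markers, 4 of them called, had medians of 16.9 and 22.1 CPM in HFCFD8W+T10D controls and knockouts and 12.1 and 57.4 CPM in those of HFCFD12W+T10W. The part of duct cell number in these genes was not tested.

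**Figure D3:**
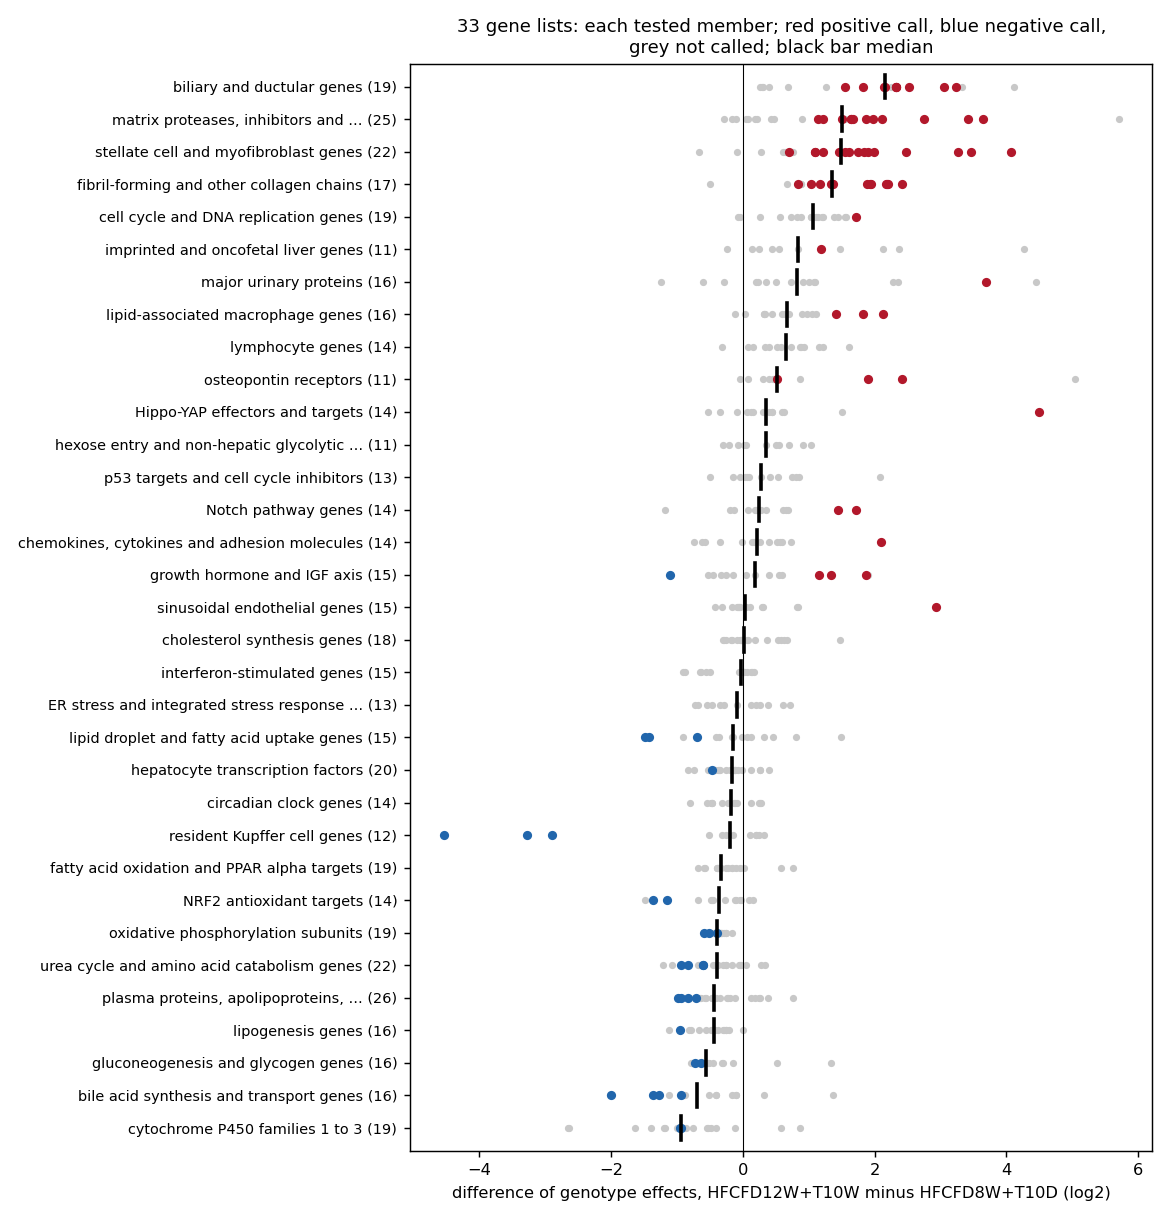
Difference of the knockout effects (log2, HFCFD12W+T10W minus HFCFD8W+T10D) for each gene of the fixed lists, 1 row per list, with positive calls in red, negative calls in blue, other genes in grey and the list median as a black bar. The medians of the biliary (2.16), matrix protease (1.51), stellate cell (1.49) and collagen (1.36) lists lie to the right of 0, and those of the cytochrome P450 (-0.94) and bile acid (-0.70) lists to the left.

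Of 11 receptors of osteopontin, 3 had a called positive difference, against 4.05% of all genes. The list's median was 0.517 (0.485 with the low group of 1 gene raised to 3 counts). Integrin subunits Itgb8 (2.42 ± 0.49, edgeR adjusted p = 0.00524) and Itga8 (1.91 ± 0.30, adjusted p = 0.000899) were called, and so was Itgav (0.52 ± 0.14, adjusted p = 0.0339), whose call was lost in 10 of 20 fits without 1 mouse (adjusted p up to 0.0698). In the Notch pathway 2 of 14 genes were called, the ligand Jag1 (1.45 ± 0.30, edgeR adjusted p = 0.0062) and the target Heyl (1.71 ± 0.33, adjusted p = 0.00408). Of 14 Hippo-YAP genes the only one called was the target Ankrd1, which had at most 1 count in every control mouse and a mean of 2.33 CPM in HFCFD12W+T10W knockouts. These last shares, 14.3% and 7.14%, stand beside 7.15% of all genes. Among 15 sinusoidal endothelial genes 1 was called, a share of 6.67% beside 7.15% of all genes. It was Cd34, a surface protein of capillary endothelium and of mesenchymal cells. Cd34 was at 6.11, 7.41, 6.29, 2.43 and 7.67 CPM in HFCFD8W+T10D controls and 3.35, 5.42, 5.503, 4.54 and 7.02 CPM in knockouts, which overlapped, and at 1.28, 1.59, 1.26, 2.76 and 2.44 CPM in HFCFD12W+T10W controls and 12.1, 8.56, 20.2, 10.1 and 11.7 CPM in knockouts, which did not. Its difference was 2.94 ± 0.42 (edgeR adjusted p = 0.000416).

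Of 16 genes of lipid-associated macrophages, 11 were higher in the knockouts at HFCFD8W+T10D and 14 at HFCFD12W+T10W, against 5.24% and 14.1% of all genes. In both experiments 11 were higher, against 4.55% of all genes, and 3 had a called positive difference, against 4.05%. Trem2, a lipid receptor of such cells, went from an effect of 2.22 to one of 4.05, and its difference of 1.83 ± 0.55 (edgeR adjusted p = 0.048) lost its call in 16 of 20 fits without 1 mouse (adjusted p up to 0.0956). Fabp5, a fatty acid chaperone, had a difference of 2.13 ± 0.57 (adjusted p = 0.0276), which was lost in 4 of 20.

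Gained lower levels numbered 80 and were 41 and 43 without knockout mouse 2 or 5 of HFCFD12W+T10W, 53 without control mouse 3 and 51 without knockout mouse 4 of HFCFD8W+T10D. Of 12 genes of resident Kupffer cells 3 had a called negative difference, Cd163, Timd4 and Marco, against 3.1% of all genes. The list's median difference was -0.202, and 5 of the 12 had a positive sign, up to 0.32 for Adgre1, a general macrophage surface protein. Cd163, a haemoglobin scavenger receptor, was at 47.5, 44.3, 70.4, 49.4 and 40.2 CPM in Cebpa fl/fl and 33.7, 51.8, 28.1, 60.4 and 22.8 CPM in Cebpa ΔHep,ERT2 mice at HFCFD8W+T10D, which overlapped. It was at 11.5, 19.1, 25.97, 44.2 and 37.1 CPM and 2.07, 0.796, 0.919, 5.31 and 2.02 CPM at HFCFD12W+T10W, which did not. The effect went from -0.36 to -3.63, a difference of -3.28 ± 0.54 (edgeR adjusted p = 0.00142).

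Timd4, a receptor for apoptotic cells, was at 12.5, 14.5, 25.1, 14.2 and 5.43 CPM in controls and 14.2, 22.97, 12.7, 16.97 and 10.6 CPM in knockouts at HFCFD8W+T10D. It was at 3.46, 13.1, 12.9, 17.4 and 20.5 CPM in controls and 4.81, 0.896, 1.195, 1.67 and 1.23 CPM in knockouts at HFCFD12W+T10W. The groups overlapped in both experiments, in the longer one through control mouse 1 and knockout mouse 1, and the other 4 knockout mice were all below 2 CPM. Its difference was -2.90 ± 0.61 (edgeR adjusted p = 0.0073). The third gene was Marco, given with the genes of opposite direction. Between the experiments 8 of the 12 Kupffer cell genes fell in knockout livers and 4 fell in control livers, against 13% and 4.13% of all genes. The summed macrophage markers, which include Marco and Trem2, had medians of 624.8 and 920.2 CPM in HFCFD8W+T10D controls and knockouts and of 434.7 and 570.9 CPM in those of HFCFD12W+T10W.

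Of 16 genes of bile acid synthesis and transport, 4 had a called negative difference, against 3.1% of all genes, and the median of the list was -0.70. Slc10a1, the sodium-dependent bile salt carrier at the sinusoidal membrane, was at 485, 476, 469.6, 422 and 354 CPM in controls and 335, 113, 275, 386 and 285 CPM in knockouts at HFCFD8W+T10D. It was at 446, 419.7, 384, 446 and 322 CPM in controls and 53.1, 49.7, 105, 63.2 and 47.8 CPM in knockouts at HFCFD12W+T10W. The groups overlapped by 1 knockout mouse in the shorter experiment, where knockout mouse 2 was far below the others, and did not overlap in the longer one. The effect went from -0.66 to -2.66, a difference of -1.998 ± 0.34 (edgeR adjusted p = 0.0017). Akr1d1, the 5β-reductase of bile acid synthesis (-1.37 ± 0.28, adjusted p = 0.00675), and Slc27a5, a bile acid CoA ligase (-1.27 ± 0.31, adjusted p = 0.0181), were called as well. Slc27a5 lost its call with the replicate block and without HFCFD8W+T10D knockout mice 1 and 4 (adjusted p up to 0.0602).

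Acot3, a peroxisomal acyl-CoA thioesterase, had the fifth largest difference among protein-coding genes that gained a lower level and had at least 5 CPM in 1 group. It was at 33.98, 27.6, 32.7, 21.2 and 47.2 CPM in controls and 30.2, 40.6, 48.5, 30.7 and 29.9 CPM in knockouts at HFCFD8W+T10D, which overlapped. It was at 79.5, 78.9, 97.8, 106 and 137 CPM in controls and 30.6, 21.4, 21.6, 19.9 and 18.9 CPM in knockouts at HFCFD12W+T10W, which did not. Acot3 rose in controls between the experiments (1.62, edgeR adjusted p = 3.44e-05) and fell in knockouts (-0.68, adjusted p = 0.0158), and the difference was -2.30 ± 0.28 (adjusted p = 0.000234).

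Among 22 genes of the urea cycle and amino acid catabolism 4 had a called negative difference, against 3.1% of all genes, with a list median of -0.39, among them Gls2, the liver glutaminase (-0.93 ± 0.21, edgeR adjusted p = 0.0108), Uroc1, which degrades histidine (-0.84 ± 0.21, adjusted p = 0.0181), and arginase Arg1 (-0.61 ± 0.15, adjusted p = 0.0186). Of 16 genes of gluconeogenesis and glycogen 2 were called negative, including the glycogen branching enzyme Gbe1 (-0.64 ± 0.14, adjusted p = 0.00889). Of 19 cytochrome P450 genes 2 were, with a list median of -0.94, including Cyp3a13 (-0.96 ± 0.21, adjusted p = 0.0096). Of 26 plasma protein genes 4 were, led by coagulation factor F7 (-0.99 ± 0.19, adjusted p = 0.00408), with complement C3 (-0.94 ± 0.22, adjusted p = 0.0131). Arg1 lost its call with unscaled totals (adjusted p = 0.112) and C3 with the replicate block (adjusted p = 0.0646). With unscaled totals the medians of these 4 lists stayed negative. With those totals the urea cycle list was at -0.165 and the plasma protein list at -0.194, while the median of all genes rose to 0.2. Of 20 hepatocyte transcription factors 1 was called negative, a share near that of all genes, Prox1 (-0.47 ± 0.13, edgeR adjusted p = 0.0366), which lost its call in 10 of 20 fits without 1 mouse (adjusted p up to 0.0892).

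Most of the called differences came with a change of the knockout livers between the experiments. Of the 522 positive differences, 414 rose in knockout livers between the experiments and 119 fell in control livers at an adjusted p under 0.05, which was the knockout side alone in 362 and the control side alone in 71. Of the 400 negative differences 312 fell in knockout livers and 83 rose in control livers. Over all genes tested 1603 rose and 1675 fell in knockout livers, and 657 rose and 533 fell in control livers. These changes carry the experiment, the diet time and the age with them.

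**Figure D4:**
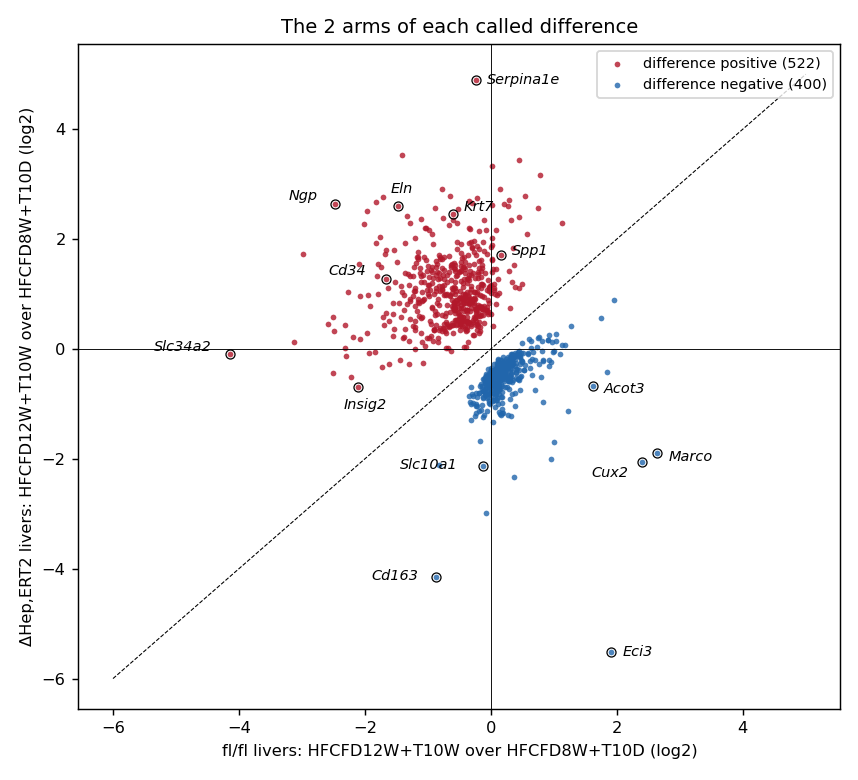
Change between the experiments (log2, HFCFD12W+T10W over HFCFD8W+T10D) in Cebpa ΔHep,ERT2 livers on the vertical axis against that in Cebpa fl/fl livers on the horizontal axis, 1 point per gene with a called difference. Of the 522 positive differences, 466 have changes of opposite sign in the knockout and control livers. Of the 400 negative ones 295 do, and of all 12900 genes tested 5143 do. The difference is the knockout change minus the control change, so the choice of called genes itself favours opposite signs.

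The 14 genes that lost a higher level (8 to 15 without any 1 mouse) were Apoc2, Cbr1, Cux2, Eci3, Gstm4, Ifi27, Ifi27l2b, Marco, Mbl2, Mgst3, Nqo1, Slc25a48, Slco2a1 and St6gal1, with a median effect of 1.396 at HFCFD8W+T10D and 0.307 at HFCFD12W+T10W. Nqo1, a quinone reductase and target of NRF2, was at 10.6, 12.5, 5.41, 7.504 and 7.46 CPM in controls and 24.9, 43.2, 42.5, 39.5 and 45.3 CPM in knockouts at HFCFD8W+T10D. It was at 11, 11.5, 13.5, 5.902 and 7.55 CPM in controls and 23.01, 15.8, 15.3, 16.3 and 16.1 CPM in knockouts at HFCFD12W+T10W. The groups did not overlap in either experiment, but the effect went from 2.18 to 0.81, below the fold of 2, with a difference of -1.37 ± 0.31 (edgeR adjusted p = 0.012). The glutathione S-transferase Gstm4 went from 2.04 to 0.88 (difference -1.16 ± 0.28, adjusted p = 0.0181), and its close relatives can share reads with it. Slco2a1, a prostaglandin carrier, had a difference of -1.06 ± 0.32 (adjusted p = 0.0483), which lost its call in 14 of 20 fits without 1 mouse (adjusted p up to 0.094). Nqo1, Gstm4 and Slco2a1 were still higher in the knockouts at HFCFD12W+T10W, by a fold under 2 (edgeR adjusted p = 0.00445, 0.00108 and 0.00165). Of 14 NRF2 targets 2 had a called negative difference, Nqo1 and Gstm1 (-1.16 ± 0.29, adjusted p = 0.0186), against 3.1% of all genes, and 8 were higher in the knockouts at HFCFD8W+T10D, against 5.24%.

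The 10 genes that lost a lower level (9 to 17 without any 1 mouse) included Dpy19l1, Gcnt4, Gm8893, Igfbp2, Insig2, Pknox2, Rnf144a, Slc34a2 and Slc36a4. Slc34a2, a sodium-phosphate cotransporter whose upstream sequence is printed above, was at 46.8, 34.2, 88.2, 25.7 and 56.7 CPM in controls and 5.98, 10.9, 2.81, 1.17 and 6.81 CPM in knockouts at HFCFD8W+T10D, which did not overlap. At HFCFD12W+T10W it was at 3.199, 1.47, 2.65, 0.502 and 6.11 CPM in controls and 3.11, 3.58, 4.96, 3.35 and 11.5 CPM in knockouts, which did. Between the experiments the control level fell (-4.15, edgeR adjusted p = 5.1e-05) while the change of the knockout level was -0.10 (adjusted p = 0.914), and the difference was 4.05 ± 0.73 (adjusted p = 0.00225).

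Insig2, an endoplasmic reticulum protein that holds back sterol synthesis, was at 326, 275, 288, 395 and 722 CPM in controls and 79.6, 74.2, 82.8, 101 and 144 CPM in knockouts at HFCFD8W+T10D, which did not overlap. It was at 72.3, 68.7, 124, 60.02 and 139 CPM in controls and 55.5, 58.7, 62.2, 64.3 and 56.5 CPM in knockouts at HFCFD12W+T10W, which did. Here too the control level fell between the experiments (-2.11, edgeR adjusted p = 5.1e-05), and the difference was 1.42 ± 0.37 (adjusted p = 0.0229). Insig2 was still lower in the knockouts at HFCFD12W+T10W, by a fold under 2 (-0.64, edgeR adjusted p = 0.046).

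Igfbp2, a binding protein of insulin-like growth factors, moved on the knockout side. It was at 55.5, 36.3, 134, 64.3 and 40.2 CPM in controls and 32.3, 20.9, 37.2, 16.6 and 24.9 CPM in knockouts at HFCFD8W+T10D. It was at 45.5, 38.2, 74.1, 112 and 60.5 CPM in controls and 73.5, 111, 109.8, 112 and 74.8 CPM in knockouts at HFCFD12W+T10W. In the first experiment only knockout mouse 3 reached into the control range, and in the second the groups overlapped. The level rose in knockout livers between the experiments (1.86, edgeR adjusted p = 0.000381), with a difference of 1.87 ± 0.45 (adjusted p = 0.0166). Rnf144a, a ubiquitin ligase, had a difference of 1.78 ± 0.46 (adjusted p = 0.0245). Its level fell in control livers between the experiments (-1.84, edgeR adjusted p = 0.00154), while its change in knockout livers was -0.06 (adjusted p = 0.914).

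Called in opposite directions were 4 genes. Eci3, a peroxisomal isomerase of fatty acid oxidation with a close relative in Eci2, was at 0.255, 0, 0.252, 0.1104 and 0.3196 CPM in HFCFD8W+T10D controls and 3.65, 8.73, 6.21, 6.997 and 7.74 CPM in the knockouts. It was at 0, 0.489, 0.378, 0 and 2.77 CPM in HFCFD12W+T10W controls and 0.377, 0.199, 0, 0.0984 and 0 CPM in the knockouts. In the shorter experiment controls had at most 3 counts and knockouts 36 to 100 counts, with no overlap. In the longer one all 10 mice but 1 control were under 1 CPM and the groups overlapped, and no knockout had more than 4 counts, so the lower call there rests on few reads. The fitted difference had an edgeR adjusted p of 0.00119 and at most 0.0108 over the alternatives.

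Marco, a scavenger receptor of Kupffer cells, was at 15.8, 10.8, 26.03, 18.2 and 7.56 CPM in controls and 32.04, 216, 45.8, 28.1 and 21.2 CPM in knockouts at HFCFD8W+T10D. It was at 18.8, 57.9, 92.8, 149 and 170.1 CPM in controls and 41.8, 10.3, 13.6, 15.4 and 11.2 CPM in knockouts at HFCFD12W+T10W. The groups overlapped in both experiments, and knockout mouse 2 of the first was the highest of all. The effect went from 2.14 to -2.40, a difference of -4.54 ± 0.89 (edgeR adjusted p = 0.00428). Cux2, a homeobox factor, went the same way (-4.47 ± 0.99, adjusted p = 0.0096), and Pknox2, another homeobox factor, went from -1.06 to 1.33 (2.39 ± 0.44, adjusted p = 0.00272). Cux2 and Pknox2 stayed under 5 CPM on average in every group and are named because only 4 genes were in this class.

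Kept effects were the larger class. Of the 587 genes higher in the knockouts of both experiments, 55 had a called larger and 3 a called smaller effect at HFCFD12W+T10W, and 529 had no called difference. For 80 of those 529 the 95% interval of the difference lay within 1 log2 unit of 0, and for the rest it did not, so equal effects were not shown for them. The median effect was 1.408 and then 2.058. Of the 215 genes lower in both, 4 had a called positive and 4 a called negative difference, 207 had no called difference and 60 of these had an interval within 1 log2 unit, with median effects of -1.686 and -1.845.

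Gstm3, a glutathione S-transferase with close relatives in the genome, was at 93.7, 60.7, 24.4, 34.5 and 97.6 CPM in controls and 520.5, 1713, 1253, 1025 and 1252 CPM in knockouts at HFCFD8W+T10D. It was at 108, 132, 91.8, 33.3 and 52.95 CPM in controls and 1193, 640.3, 986, 983 and 988 CPM in knockouts at HFCFD12W+T10W. Neither pair of groups overlapped, and the difference was -0.69 ± 0.52 (edgeR adjusted p = 0.461). Among protein-coding genes with at least 1 CPM in every group and 5 CPM in 1, the other genes with the largest kept higher effects were Mmp12, the macrophage elastase (3.48 and 4.39), Ly6d, a surface protein (3.13 and 4.30), Tff3, a trefoil peptide (3.20 and 2.81), and Gsta1 (2.76 and 2.91), each without a called difference. Gsta1 was at 8.21, 99.9, 75.6, 94.1 and 97.8 CPM in HFCFD8W+T10D knockouts, where mouse 1 lay within the control range, and at 91.4, 27.3, 33.3, 48.1 and 54.6 CPM in HFCFD12W+T10W knockouts.

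Obp2a, an odorant-binding protein, was at 116, 196, 246, 339 and 101 CPM in controls and 4.26, 3.32, 6.32, 19.1 and 9.08 CPM in knockouts at HFCFD8W+T10D. It was at 91.99, 166, 85.3, 96.7 and 74.3 CPM in controls and 2.45, 1.29, 5.7, 5.51 and 2.103 CPM in knockouts at HFCFD12W+T10W. All knockout mice lay below all controls, and the effects were -4.61 and -4.91. Wfdc21 (-4.33 and -4.83), Sult2a8, a bile acid sulfotransferase (-3.79 and -5.73), and Cyp2b9 (-3.95 and -3.08) were also lower in both experiments, without a called difference. Without knockout mouse 2 of HFCFD8W+T10D the difference of Sult2a8 was -2.21 and was called (edgeR adjusted p = 0.0306).

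Serpina1e, 1 of several nearly identical α1-antitrypsin genes of the mouse, was lower in both with a called difference toward a smaller effect. It was at 4944, 9270, 8187, 5856 and 841 CPM in controls and 20.5, 16.3, 17.2, 25.3 and 9.598 CPM in knockouts at HFCFD8W+T10D. It was at 10650, 1962, 2154, 9778 and 116 CPM in controls and 139.6, 96.1, 1230, 786 and 376 CPM in knockouts at HFCFD12W+T10W. The groups were apart in the first experiment and overlapped in the second, where controls spread over a wide range. The knockout level rose between the experiments (4.89, edgeR adjusted p = 0.000797), and the difference was 5.13 ± 1.18 (adjusted p = 0.0126). The major urinary protein genes are another family of near-identical copies. All 16 tested were lower in the knockouts at HFCFD8W+T10D and 14 at HFCFD12W+T10W, against 2.21% and 3.97% of all genes. Of the 16, Mup2 alone had a called difference, a share of 6.25% beside 7.15% of all genes. It had at most 1 count in each HFCFD8W+T10D knockout (mean 0.0615 CPM, against 26.6 CPM in controls) and was 27.4-fold lower at HFCFD12W+T10W, and its call (edgeR adjusted p = 0.0267) was lost in 3 of 20 fits without 1 mouse (adjusted p up to 0.0587).

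**Figure D5:**
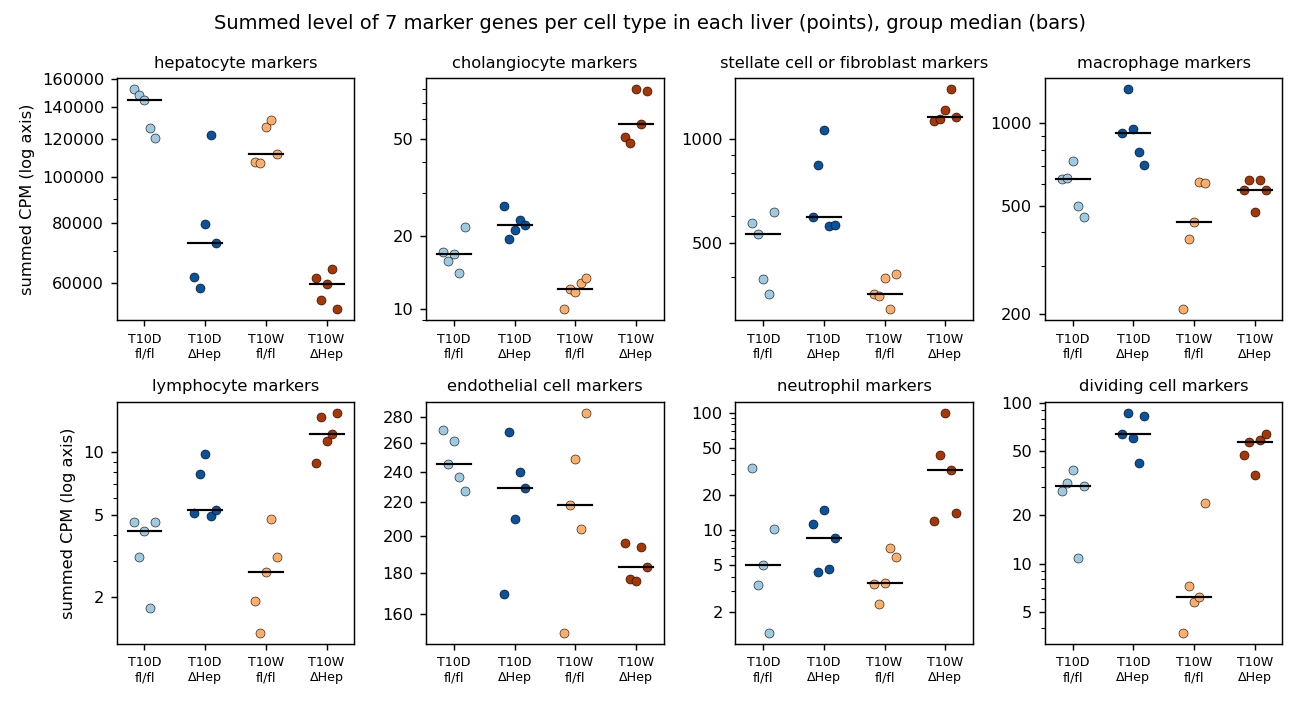
Summed level of the 7 markers of each cell type in each mouse (CPM, log axis), 1 point per mouse, by group. Bars are group medians. Those of the stellate cell, cholangiocyte, lymphocyte and neutrophil sums are highest in the HFCFD12W+T10W Cebpa ΔHep,ERT2 group, and those of the endothelial sums run from 183.1 to 245.5 CPM.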

How the data were processed

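Liver mRNA of 20 mice in 4 groups was analysed, and the third experiment of the series (10 libraries) entered only as an alternative. The authors deposited RSEM expected counts per gene without normalization, 1 column per mouse. The submitters' processing notes name Trimmomatic 0.36, STAR 2.5.1, Picard 1.84, RSEM 1.2.22, DESeq2 and the build mm10, without roles. Identifiers are those of GENCODE M21. Deposited TMM-scaled and RPKM tables were not used.

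Expected counts (3.37% not whole) were rounded. Genes passing filterByExpr by group were fitted in edgeR 4.0.16 (R 4.3.3, limma 3.58.1) with TMM factors, 4 group means and the quasi-likelihood test, as tested on simulated data. Calls used adjusted p under 0.05 over all 12900 genes, and for genotype effects also a fold over 2. A group with at most 3 counts in every mouse was raised to 3 counts where the text says so. Errors are SE, and intervals are 95%. Multi-copy families can share reads in the authors' counting. Replicates were separate mice by their labels.

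Named were Cebpa, Spp1, the largest called members of the lists, and the 5 protein-coding genes of largest difference in each gained, lost or opposite pattern. For kept patterns they were the 5 whose smaller effect was largest. A gene needed at least 5 CPM in 1 group, and at least 1 CPM in every group for kept patterns, and was not a Mup gene or a predicted or Riken symbol. Of the genes named by this rule, 1 is not reported here. Of 563 listed genes, 537 were tested. The members and lists were chosen with earlier results of these data known. Alternatives were other scalings, no filter, DESeq2 1.42.0, robust estimation, all 30 libraries, other thresholds, a replicate block, separate fits, and each mouse left out.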

Additional observations from a re-analysis of the deposited data

Results flagged for a closer look

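The difference between the 2 knockout effects is itself a test of 1 contrast in 2 experiments, and by it 922 genes differed (edgeR adjusted p under 0.05). Among them Eci3 (fitted log2 difference -7.43, a value that depends on the prior count because HFCFD8W+T10D controls had at most 3 counts and HFCFD12W+T10W knockouts at most 4), Marco (-4.54), Cux2 (-4.47) and Pknox2 (2.39) were called in opposite directions in the 2 experiments.

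Single mice stood apart from the other 4 of their group by Dixon's test in 13 of 140 groups examined, where chance flags about 1 in 20. Among control mice, HFCFD8W+T10D mouse 3 had 0.252 CPM of Eln (others 1.21 to 2.04), mouse 4 had 2.43 CPM of Cd34 (others 6.11 to 7.67) and a summed level of dividing cell markers of 10.8 CPM (others 28.5 to 38.5), and mouse 5 had 841.1 CPM of Serpina1e (others 4944 to 9270). In HFCFD12W+T10W controls, mouse 1 had 3.46 CPM of Timd4 (others 12.9 to 20.5) and mouse 4 had 1.005 CPM of Gsta1 (others 6.01 to 10.3).

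Among knockout mice of HFCFD8W+T10D, mouse 1 had 24.9 CPM of Nqo1 (others 39.5 to 45.3) and 8.21 CPM of Gsta1 (others 75.6 to 99.9), and mouse 2 had 112.8 CPM of Slc10a1 (others 275.3 to 386.0). In HFCFD12W+T10W knockouts, mouse 1 had 41.8 CPM of Marco (others 10.4 to 15.4), 30.6 CPM of Acot3 (others 18.9 to 21.6) and 23.01 CPM of Nqo1 (others 15.4 to 16.3), and mouse 3 had 31.9 CPM of Slpi (others 4.90 to 7.77).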

How the results depend on the processing

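The counts moved more than the named genes did, and negative differences more than positive ones. Negative calls (400) came to 202 with upper quartile factors, 110 with library totals, 602 with DESeq2, 712 with all 30 libraries, 69 at an adjusted p under 0.01, 57 with a difference over 1 log2 unit, and positive calls (522) to 182 at an adjusted p under 0.01. Gained higher levels (372) came to 151 at that threshold. Gained lower levels (80) came to 35 with upper quartile factors, 17 with totals, 30 at an adjusted p under 0.01 and 40 over 1 log2 unit. Lost higher levels (14) came to 8 with upper quartile factors, 6 with totals, 4 at an adjusted p under 0.01 and 8 over 1 log2 unit, and lost lower levels (10) to 17 without the filter, 16 with DESeq2, 16 with all 30 libraries and 3 at an adjusted p under 0.01. Kept levels came to 1074 higher and 138 lower with totals, and opposite calls (4) to 1 with totals and 2 with separate fits. The share of positive calls was 52.8% with DESeq2, 47.5% with all 30 libraries, 67.3% with the block, 72.5% at an adjusted p under 0.01 and 88.3% over 1 log2 unit. The cause was not tested.

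The deviations of same-numbered mice correlated at -0.087 to 0.136 in HFCFD8W+T10D and -0.086 to 0.158 in HFCFD12W+T10W. The labels do not say whether the replicate numbers pair the mice, and these correlations cannot decide it. With the replicate block there were 429 positive and 208 negative calls, 7 lost higher levels, and a difference of 0.17 for Tff3 (-0.39 without it).

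Without 1 mouse at a time, positive calls ran from 384 to 835, negative from 177 to 656, gained higher from 275 to 591, gained lower from 41 to 107, lost higher from 8 to 15, lost lower from 9 to 17 and opposite from 2 to 6. Lost higher levels were 9 without HFCFD8W+T10D control mouse 4 or HFCFD12W+T10W knockout mouse 4, and 8 without HFCFD8W+T10D knockout mouse 3 or 4 or HFCFD12W+T10W knockout mouse 2, 3 or 5. Lost lower levels were 17 without HFCFD8W+T10D control mouse 4 or knockout mouse 5 and 16 without its knockout mouse 2. Opposite calls were 2 without HFCFD12W+T10W knockout mouse 2, 3 or 4. Without HFCFD8W+T10D knockout mice 1 and 4, added after seeing the data, there were 279 positive and 123 negative calls, 195 gained higher, 36 gained lower and 9 lost higher levels.

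The differences of 4 kept genes, none called, changed sign. Without 1 mouse, Gsta1 ran from -0.24 to 0.37, Wfdc21 from -1.12 to 0.53, Obp2a from -0.58 to 0.22 and Tff3 from -0.90 to 1.04. Without knockout mice 1 and 4 of HFCFD8W+T10D, Gsta1 was at -0.115, Obp2a at 0.12 and Wfdc21 at 0.39. With library totals the median difference of hepatocyte transcription factors was 0.0434 (-0.170 with TMM) and the median difference of circadian clock genes 0.048 (-0.181). The median difference of urea cycle and amino acid catabolism genes was -0.165 with totals. At 8047010 to 9956884 counts per library, genes near 3 counts carry the widest errors.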

Other observations

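Several gene groups moved with the knockout or with the experiment without a called difference of the knockout effects. Of 19 cell cycle and DNA replication genes, 13 were higher in the knockouts of both experiments, against 4.55% of all genes. Cdk1, the kinase that starts mitosis, was the only one with a called difference (1.72 ± 0.46, edgeR adjusted p = 0.0285, lost in 7 of 20 fits without 1 mouse, up to 0.059), while 7 had an unadjusted p under 0.05 and 4 were called by DESeq2. Of all genes 7.15% had a called difference, 23.1% had an unadjusted p under 0.05 and DESeq2 called 9.88%. Cdk1 was at 4.71, 4.56, 8.43, 2.21 and 5.43 CPM in HFCFD8W+T10D controls and 10.7, 11.1, 10.1, 7.90 and 11.8 CPM in the knockouts, which overlapped slightly. It was at 0.384, 0.856, 0.504, 1.26 and 2.22 CPM in HFCFD12W+T10W controls and 6.70, 6.47, 4.78, 9.25 and 9.03 CPM in the knockouts, which did not. Between the experiments 9 of the 19 genes fell in control livers and 1 fell in knockout livers, against 4.13% and 13% of all genes, and 2 rose in knockout livers, against 12.4%.

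Of 15 interferon-stimulated genes, 11 were higher in the knockouts at HFCFD8W+T10D and 8 at HFCFD12W+T10W, against 5.24% and 14.1% of all genes, and edgeR called 0 differences (2 with an unadjusted p under 0.05, 1 by DESeq2). Of 14 lymphocyte genes edgeR called 0 (1 unadjusted, 0 by DESeq2), and of 18 cholesterol synthesis genes 0 (1 and 0). Of 13 genes of the endoplasmic reticulum stress response it called 0 (1 and 0), and of 13 p53 targets 0 (2 and 1). Of 11 genes of hexose entry and non-hepatic glycolysis it called 0 (3 and 0). The shares of all genes beside these counts were 7.15% called by edgeR, 23.1% with an unadjusted p under 0.05 and 9.88% called by DESeq2.

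All 19 oxidative phosphorylation subunits had a negative difference, with a median of -0.390, while 48.8% of all genes had a positive one. The test called 3 of them, 15 had an unadjusted p under 0.05, and DESeq2 called 9, against 7.15%, 23.1% and 9.88% of all genes. The calls were lost in 14 of 20 fits without 1 mouse for Ndufa9, in 15 for Ndufs1 and in 4 for Sdhb (edgeR adjusted p up to 0.0876, 0.107 and 0.0651). In the same order they were lost in 6, 8 and 5 of 11 other settings, with upper quartile factors among these for each gene. Of the 19, 18 fell in knockout livers between the experiments, against 13% of all genes. At HFCFD12W+T10W all 19 were lower than control at an edgeR adjusted p of 1.29e-05 to 0.0158, none by a fold over 2. Of all 12900 genes tested, 7106 had an edgeR unadjusted p under 0.05 for the knockout effect there, in either direction. The list's median effect there was -0.472. With unscaled library totals the median effect of all genes in that experiment moved from -0.032 to 0.392, so the size of these effects depends on the scaling. Of 19 fatty acid oxidation genes edgeR called 0 (8 unadjusted and 4 by DESeq2, all negative).

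The growth hormone and insulin-like growth factor axis had calls in both directions, 3 positive and 1 negative of 15, against 4.05% and 3.1% of all genes. Igfbp7, a secreted binding protein, had a difference of 1.16 ± 0.13 (edgeR adjusted p = 0.000213), the receptor Igf1r one of 1.34 ± 0.30 (adjusted p = 0.0096), and Igfals, the acid-labile subunit made by hepatocytes, one of -1.10 ± 0.23 (adjusted p = 0.00756). Among 11 imprinted and oncofetal genes only the adaptor Grb10 was called (1.18 ± 0.27, adjusted p = 0.0116), a share of 9.09% beside 7.15% of all genes.

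Of 14 circadian clock genes edgeR called 0 differences. An unadjusted p under 0.05 was found for 2 and DESeq2 called 0, against 23.1% and 9.88% of all genes. Yet 9 rose and 4 fell in knockout livers and 9 rose and 3 fell in control livers between the experiments. Of all genes 12.4% rose and 13% fell in knockout livers and 5.09% rose and 4.13% fell in control livers. The hour of collection is not given, and its part in the changes between the experiments was not tested.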
